A study of Mus musculus with 2 samples.

Results

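The 39 genes described here act in the Fanconi anaemia pathway, in homologous recombination, in non-homologous end joining and in the signalling of DNA breaks. They were taken as the rows of the 2 deposited count tables whose gene symbol equals a listed name, and all 39 of 39 were found among 24062 genes. The cells, labelled haematopoietic progenitors, expressed CD31 and an intermediate level of KIT and were taken from the aorta of C57BL6 mouse embryos on embryonic day 11. Every embryo carried the transgene Gata2Venus, whose fluorescence reports Gata2, a transcription factor of blood development. Sorting by that fluorescence gave a Gata2Venus-negative and a Gata2Venus-positive group, called Venus-negative and Venus-positive cells here, in a study of progenitors independent of Gata2. How many embryos were pooled is not in the labels.

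Fanconi proteins recognise DNA strands that are chemically linked to each other. A core complex attaches ubiquitin to the pair FANCD2 and FANCI, and nucleases and homologous recombination then repair the break that forms when the link is cut out. Recombination copies the lost sequence from the sister chromatid and needs BRCA1, BRCA2 and the mediators of strand exchange, whereas end joining ligates broken ends directly through Ku, DNA-PK, XRCC4 and DNA ligase 4. Loss of the Fanconi pathway is known for bone marrow failure, and blood stem and progenitor cells are among the cells most sensitive to it.

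The genes held 10135400 counts for Venus-negative and 9715131 for Venus-positive cells, with 1 library of each. Differences between them could not be checked against replicates, so p-values are absent and intervals reflect the counting of reads alone. Levels are in CPM, counts scaled to a common library size by edgeR's TMM factors, and log2 ratios are of Venus-negative over Venus-positive cells. Being past the rule means that a gene had at least 10 CPM and 50 counts on its higher side and an exact 95% interval of the ratio that stays beyond 2-fold throughout. Gata2 had 141 counts in Venus-negative cells, against 664 in Venus-positive cells, the direction of the sort. The receptor gene Kit had 2072 counts in Venus-negative cells, against 574 in Venus-positive cells, and Pecam1, which encodes CD31, had 5593 against 4627. Among genes that define early blood cells, named after their values were seen, Ptprc (CD45) had 194 counts in Venus-negative cells, against 498 in Venus-positive cells, and Itga2b (CD41) had 478 against 857. The transcription factor gene Runx1 had 21 counts in Venus-negative cells, against 303 in Venus-positive cells, Myb had 0 against 58, and Gfi1 and Spn were at 0 in both.

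The libraries also differed in markers of other cell types. Of 12 germ cell markers 7 were past the rule and higher in Venus-negative cells, where they summed to 426 CPM, against 42.9 CPM in Venus-positive cells. Prdm14, Dazl and Dnd1 were at 0 counts in Venus-positive cells, and Sycp3 and Mael were at 0 in both. Of 14 mesenchymal and smooth muscle markers 8 were higher in Venus-negative cells, with 9023 CPM summed, against 5727 CPM in Venus-positive cells, where Twist1 was at 0. Of 14 macrophage markers 12 were lower in Venus-negative cells (314 CPM summed, with Timd4 at 0, against 1381 CPM in Venus-positive cells), as were 7 of 12 megakaryocyte markers (117 CPM, with Gp1bb and Gp5 at 0, against 558 CPM). Of 14 endothelial markers 10 were lower in Venus-negative cells (2657 CPM summed, against 6002 CPM in Venus-positive cells). Of 11 measured erythroid markers 3 were lower in Venus-negative cells, 325 CPM summed there and 260 CPM in Venus-positive cells, with Gata1, Klf1, Epor, Hemgn and Car1 at 0 in Venus-negative cells and Slc4a1 at 0 in both. Among markers that reached the minimum, 77.8% of 9 germ cell and 61.5% of 13 mesenchymal markers were past the rule and higher, beside 15.2% of all genes. Past it and lower were 85.7% of 14 macrophage, 63.6% of 11 megakaryocyte, 71.4% of 14 endothelial and 50% of 6 erythroid markers, beside 14.9%. The part of these cell types in the results below was not tested. In such bulk libraries fewer cells of a type and less RNA per cell cannot be told apart.

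Repair genes went both ways. Of the 37 listed genes that reached the minimum, 5 were past the rule and higher in Venus-negative cells (Fancd2, Fanci, Brca1, Rad51b and Xrcc5), and 7 were past it and lower (Fanca, Fancg, Fancm, Bard1, Xrcc2, Xrcc3 and Lig4). The other 25 were not past it, and Fancf and Rad52 were under the minimum. Over all 10381 genes at the minimum, 15.2% were higher in Venus-negative cells and 14.9% were lower, or 30.1% in either direction. The 12 repair genes past the rule make 32.4% of 37, close to that background, so the count alone says nothing particular about repair genes. If libraries were assumed to vary with a coefficient of 0.4, then 2 repair genes were past the rule and higher (Fancd2 and Rad51b) and 4 were lower (Fanca, Bard1, Xrcc2 and Lig4). Of the 38 repair genes with at least 20 counts over both libraries 21 had a ratio above equal expression, beside 49.6% of all such genes. The median log2 ratio of these 38 was 0.15, beside −0.01 over all 12544 genes with as many counts. Their middle values ran between −0.77 and 0.73 (quartiles), beside −0.84 and 0.81 over all those genes.

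**Figure D1:**
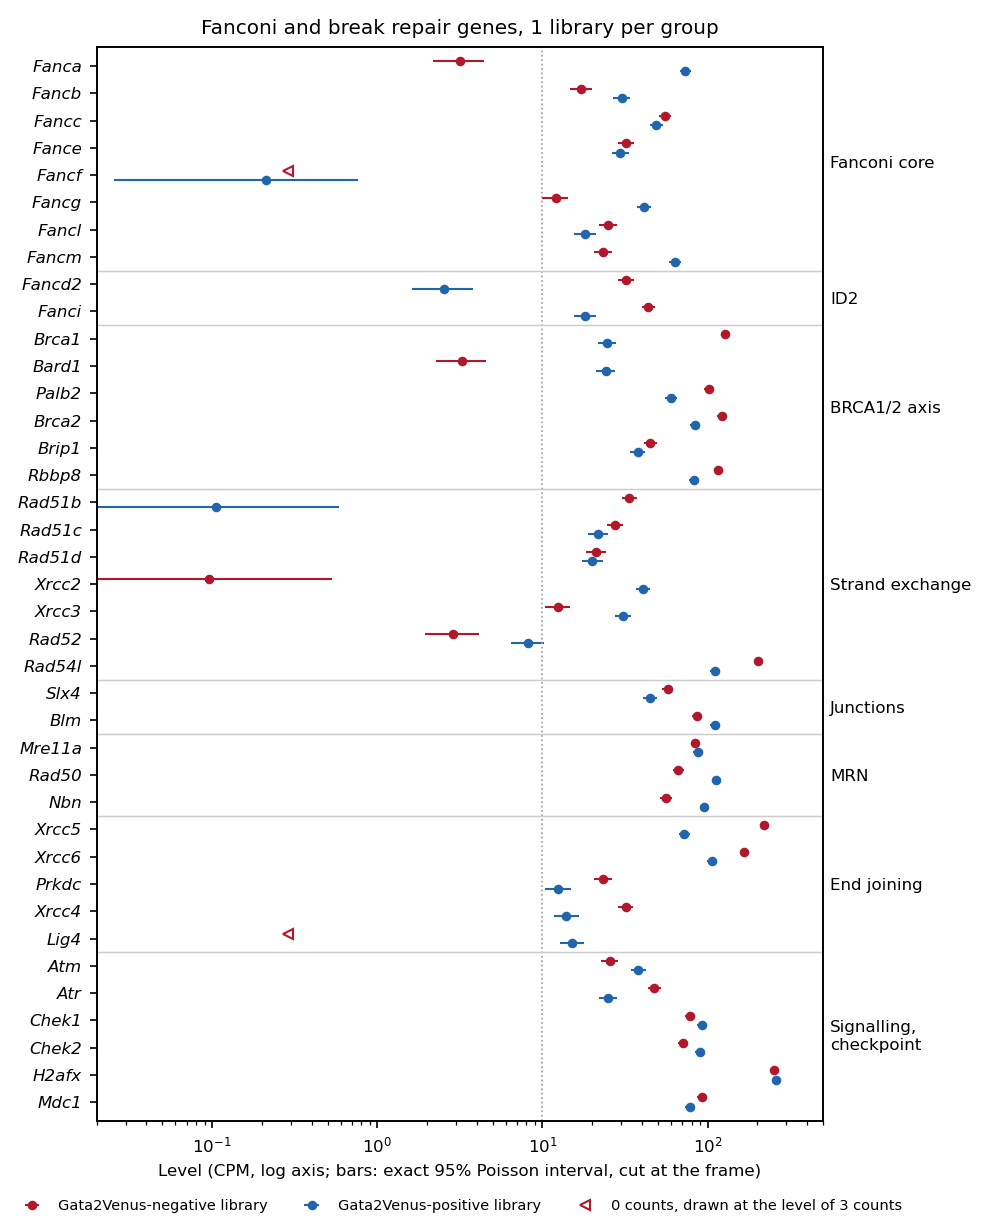
Level of each of the 39 repair genes in CPM (log axis) in Venus-negative cells (red) and Venus-positive cells (blue), 1 library each, grouped by role; bars are exact 95% Poisson intervals and the dotted line marks 10 CPM. Most genes lie between 10 and 200 CPM in both libraries, while Rad51b, Xrcc2 and Lig4 are at 0 or 1 count in one of them and Fancf is near 0 in both.

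How often genes passed the rule depended on their level. Among all genes at the minimum with a mean of 5 to 20 CPM, 57.2% were past it, and 4 of 5 repair genes were. From 20 to 50 CPM it was 31.7% of all genes, and 6 of 15 repair genes. From 50 to 100 CPM it was 18.8% of all genes and 1 of 12 repair genes, Brca1. From 100 to 200 CPM it was 13.1% of all genes and 1 of 4 repair genes, Xrcc5. From 200 to 500 CPM it was 5.21% of all genes, and H2afx, the single repair gene there, was not past it. The less abundant repair genes were thus past the rule more often, as genes of their level were, in the lowest band partly by construction. Of 37 repair genes with at least 100 counts in one library, 3 had at most 3 counts in the other, and of all 10374 such genes 7.64% did.

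**Figure D2:**
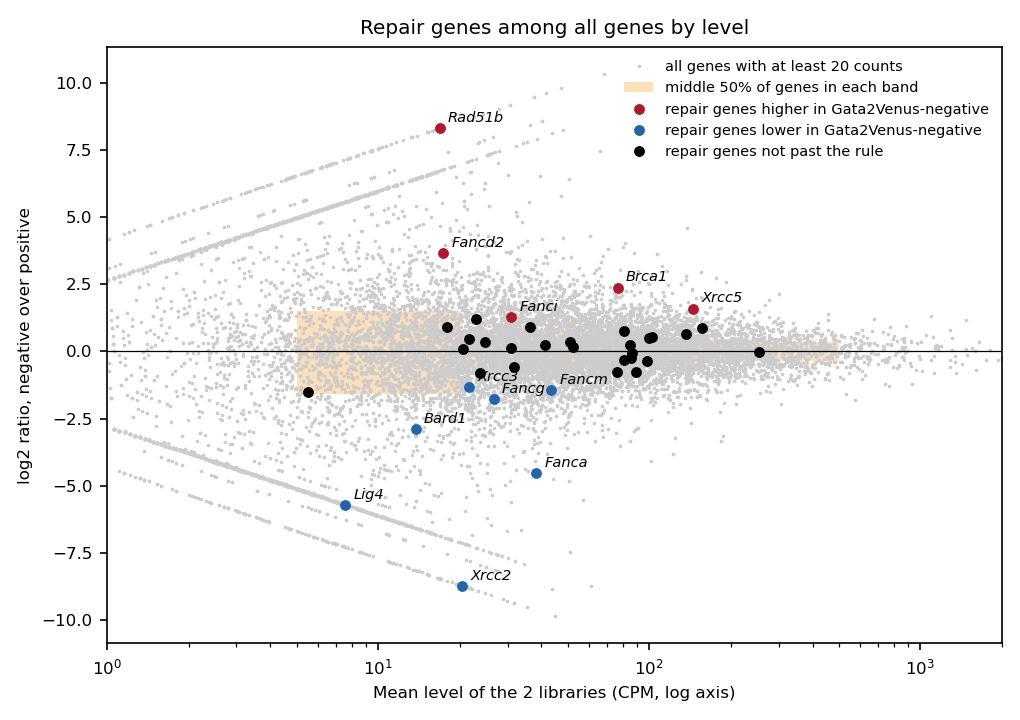
log2 ratio of Venus-negative over Venus-positive cells against the mean level of the libraries (CPM, log axis) for all genes with at least 20 counts (grey) and the repair genes (red higher, blue lower, black not past the rule); shaded boxes hold the middle 50% of all genes in each band of level. At over 50 CPM, Brca1 and Xrcc5 are the repair genes past the rule and lie above the boxes. Palb2, Brca2, Rad54l and Xrcc6 also lie above them, and Rad50 and Nbn lie below. The repair genes with the widest ratios, Xrcc2 and Rad51b, lie on the lines formed by genes with 1 count in one library.

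The sequence before the transcription start was examined because some genes that act together, such as Brca1 and Bard1, went opposite ways. Others, such as Fancd2 and Fanci or Fanca and Fancg, went the same way. RefSeq promoters (build GRCm38.p6) matched 31 of the 39 genes by symbol. Fancd2, Xrcc2, Nbn, H2afx, Rbbp8, Rad50, Prkdc and Rad51d had no match. The 250 bases before the start were searched on both strands for the motif of E2F, a family of cell cycle transcription factors. It was taken as TTCGCGC, with TTGGCGC as a further form, TTCCCGC as another and TTGCCGC as the last. They were also searched for CCAAT, the motif of NF-Y, which on the other strand can overlap the E2F form TTGGCGC, and for the cell cycle homology motif (TTTGAA or TTCGAA). An E2F motif was found for 14 of 31 repair genes (45.2%), against 9.01% of all 27025 genes in the table and 17.3% of the 7927 of them that reached the minimum in these libraries. CCAAT was found for 18 of 31 repair genes (58.1%), against 37.5% of all genes and 40.8% of those at the minimum, and the cell cycle homology motif for 2 of 31 (6.45%), against 19.6% and 14.3%. Of the repair genes past the rule, 0 of 4 that were higher in Venus-negative cells had an E2F motif in this window (Brca1, Fanci, Rad51b and Xrcc5), and 4 of 6 that were lower had one (Bard1, Fancg, Fancm and Lig4, but not Fanca or Xrcc3), as did 8 of 19 not past the rule. These are few genes, a match is not a bound site, and a part of the motifs in the directions was not tested.

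Sequences are shown for 4 genes, a pair higher in Venus-negative cells (Brca1 and Xrcc5) and a pair lower there (Bard1 and Fanca), as the bases before the start that lie in no annotated exon, 5′ to 3′ on the gene's strand, with motif matches in capitals. Brca1 (chr11:101551956-101552148, minus strand) held 1 CCAAT, 86 to 82 bases before the start. Xrcc5 (chr1:72307171-72307420, plus strand) held 1 on the other strand, written ATTGG. Bard1 (chr1:71103147-71103222, minus strand) held an E2F motif, 208 to 202 bases before the RefSeq start, and a cell cycle homology motif at 242 to 237. Its printed bases end 175 bases before that start, because the GENCODE vM21 annotation starts the gene there. Both motifs thus lie nearer to the GENCODE start than these positions say. Fanca (chr8:123318577-123318826, minus strand) held CCAAT at 50 to 46 and again at 23 to 19 bases before the start.
Brca1: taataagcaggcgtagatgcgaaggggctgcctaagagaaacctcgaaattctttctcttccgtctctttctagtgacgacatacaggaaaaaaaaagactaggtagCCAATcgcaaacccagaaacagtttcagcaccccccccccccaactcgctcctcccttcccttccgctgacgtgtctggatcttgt
Xrcc5: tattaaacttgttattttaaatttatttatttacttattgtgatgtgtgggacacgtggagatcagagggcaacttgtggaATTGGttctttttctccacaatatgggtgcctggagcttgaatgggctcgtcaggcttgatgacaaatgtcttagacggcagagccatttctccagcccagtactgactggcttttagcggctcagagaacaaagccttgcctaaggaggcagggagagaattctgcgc
Bard1: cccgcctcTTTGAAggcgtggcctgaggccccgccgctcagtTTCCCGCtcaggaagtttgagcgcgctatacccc
Fanca: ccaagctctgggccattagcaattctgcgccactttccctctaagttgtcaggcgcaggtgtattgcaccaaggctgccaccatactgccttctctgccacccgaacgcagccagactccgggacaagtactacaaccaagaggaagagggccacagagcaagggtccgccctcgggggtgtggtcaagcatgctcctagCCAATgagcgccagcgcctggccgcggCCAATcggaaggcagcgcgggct

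In the Fanconi core complex, 7 of 8 genes reached the minimum, and Fancf did not. Of these 7, 3 were lower in Venus-negative cells (42.9%, beside 14.9% of all genes), 0 were higher (beside 15.2%) and 4 were not past the rule. The 3 have mean levels of 20 to 50 CPM, where 31.7% of all genes were past the rule in either direction. Fanca encodes a large subunit that forms a subcomplex with FANCG, and had 33 counts in Venus-negative cells, against 695 in Venus-positive cells (3.17 CPM, interval 2.18 to 4.45, against 73.5 CPM, interval 68.1 to 79.2). It was 23.2-fold lower in Venus-negative cells (log2 ratio −4.54, interval −5.09 to −4.03). The gene lies on chromosome 8 (123268300 to 123318576, minus strand, mm10) and shares 552 exon bases with Zfp276 on the opposite strand. Zfp276 itself had 182 counts in Venus-negative cells and 243 in Venus-positive cells.

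Fancg, on chromosome 4, was lower together with its partner Fanca, at 12.01 CPM in Venus-negative cells, against 41.3 CPM in Venus-positive cells (3.44-fold, interval −2.09 to −1.49 on the log2 scale). Fancm, a translocase that anchors the core complex on DNA, was at 23.3 CPM in Venus-negative cells, against 63.4 CPM in Venus-positive cells, 2.72-fold lower. Fancb was at 17.2 CPM in Venus-negative cells and 30.3 CPM in Venus-positive cells, and its interval reached within 2-fold. The ubiquitin ligase gene Fancl was at 24.97 CPM in Venus-negative cells and 18.2 CPM in Venus-positive cells. Fancc (55.4 CPM negative, 49.1 CPM positive) and Fance (32.2 CPM negative, 29.6 CPM positive) had intervals that included equal expression. Fancf had 0 counts in Venus-negative cells, where a limit of 3 counts stands for 0.288 CPM and the exact 95% Poisson interval ended at 0.354 CPM, and 2 counts in Venus-positive cells. The core complex was thus uneven, with the FANCA and FANCG genes lower in Venus-negative cells and the FANCC and FANCE genes at like levels in both.

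The substrates of the core complex differed the other way. Fancd2 (chromosome 6, 113531682 to 113597017) had 334 counts in Venus-negative cells, against 24 in Venus-positive cells, and was 12.6-fold higher in Venus-negative cells (log2 ratio 3.66, interval 3.06 to 4.32). It shares 256 exon bases with Fancd2os on the opposite strand, which had 5 counts in Venus-negative cells and 0 in Venus-positive cells. Fanci, its partner (chromosome 7, 79391929 to 79450264), had 456 counts in Venus-negative cells, against 171 in Venus-positive cells, and was 2.42-fold higher (log2 ratio 1.28, interval 1.02 to 1.54), just inside the rule. Both genes of the pair were past the rule in the same direction. Fancd2 has a mean level of 5 to 20 CPM, where 57.2% of all genes at the minimum were past it in either direction. For Fanci, at 20 to 50 CPM, that share was 31.7%. Their relative levels differed, since Fancd2 per kb of exon was 0.66 of Fanci in Venus-negative cells, against 0.126 in Venus-positive cells. Fanci shares 665 exon bases with Polg, a neighbour on the opposite strand at 151 CPM in Venus-negative cells and 126 CPM in Venus-positive cells.

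BRCA1 and BARD1 work as a joined pair, a ubiquitin ligase that directs breaks to recombination, and their genes went opposite ways. Brca1 (chromosome 11, 101488764 to 101551955) had 1334 counts in Venus-negative cells, against 233 in Venus-positive cells, or 128 CPM against 24.6 CPM, 5.20-fold higher in Venus-negative cells (log2 ratio 2.38, interval 2.18 to 2.59). Bard1 (chromosome 1, 71027498 to 71103146) had 34 counts in Venus-negative cells, against 229 in Venus-positive cells, or 3.27 CPM against 24.2 CPM, 7.41-fold lower (log2 ratio −2.89, interval −3.46 to −2.37). In CPM per kb of exon, Brca1 exceeded Bard1 by 33.8 times in Venus-negative cells and was 0.876 of it in Venus-positive cells.

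The other genes of this axis were all above equal expression in Venus-negative cells without passing the rule. Palb2, which bridges BRCA1 and BRCA2, was at 102 CPM in Venus-negative cells and 60.1 CPM in Venus-positive cells (log2 ratio 0.76, interval 0.61 to 0.91). Brca2, a central mediator of recombination, was at 121 CPM in Venus-negative cells and 83.6 CPM in Venus-positive cells. Rbbp8, which encodes the end resection factor CtIP, was at 116 CPM in Venus-negative cells and 83.001 CPM in Venus-positive cells, and the helicase gene Brip1 was at 44.95 CPM in Venus-negative cells and 37.9 CPM in Venus-positive cells. Brca2 stood to Palb2 per kb as 0.441 in Venus-negative cells and 0.513 in Venus-positive cells, so this pair kept nearly the same proportion.

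**Figure D3:**
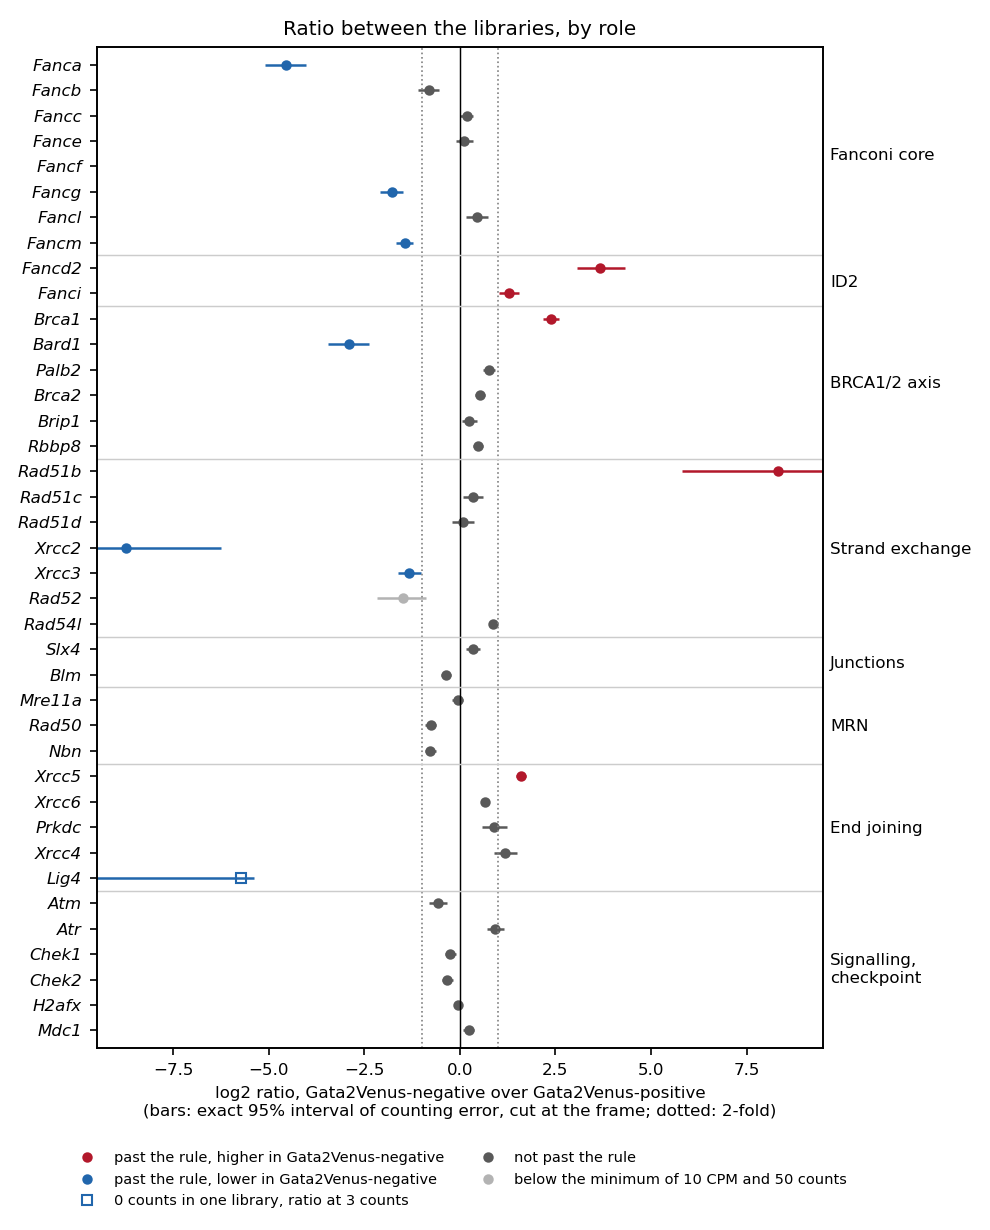
log2 ratio of Venus-negative over Venus-positive cells for the repair genes by role, with exact 95% intervals of counting error (cut at the frame) and dotted lines at 2-fold; Fancf, with 0 and 2 counts, has no ratio. Fancd2 and Fanci lie to the right with Brca1, Rad51b and Xrcc5, whereas Fanca, Fancg, Fancm, Bard1, Xrcc2, Xrcc3 and Lig4 lie to the left, and the points of the MRN and signalling genes lie within the dotted lines.

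Among the mediators of strand exchange, which act after the broken end has been resected, single genes were nearly absent from one library. Rad51b (chromosome 12, 79297282 to 79814690) had 350 counts in Venus-negative cells, against 1 in Venus-positive cells (log2 ratio 8.31, interval 5.83 to 13.62). Xrcc2 (chromosome 5, 25689812 to 25705825) was the reverse, with 1 count in Venus-negative cells, against 386 in Venus-positive cells (log2 ratio −8.73, interval −14.04 to −6.24). RAD51B and XRCC2 belong to the same complex with RAD51C and RAD51D, and the genes of those partners were at like levels. Rad51c was at 27.6 CPM in Venus-negative cells and 21.8 CPM in Venus-positive cells. Rad51d was at 21.1 CPM in Venus-negative cells and 20.1 CPM in Venus-positive cells, with an interval that included equal expression (−0.21 to 0.36).

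Xrcc3, which pairs with RAD51C in another complex, had 129 counts in Venus-negative cells, against 292 in Venus-positive cells, and was 2.49-fold lower, with the bound nearest to equal expression at −1.01, just inside the rule. It was no longer past the rule with scaling by total counts. Rad54l, which encodes a motor protein of strand pairing, had the highest level per kb of the 7 listed genes of strand exchange in both libraries, at 201 CPM in Venus-negative cells and 110 CPM in Venus-positive cells (log2 ratio 0.87, interval 0.76 to 0.98). Rad52 had 30 counts in Venus-negative cells and 77 in Venus-positive cells, under the minimum in both. The helicase gene Blm (86.2 CPM negative, 111 CPM positive) and Slx4 (57.3 CPM negative, 45.04 CPM positive), a scaffold for the nucleases that cut linked strands, were not past the rule.

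MRE11, RAD50 and NBN form the MRN complex, which senses broken ends, and none of their genes was past the rule. Their mean levels are 50 to 100 CPM, where 18.8% of all genes at the minimum were past it in either direction. Mre11a was at 84.5 CPM in Venus-negative cells and 87.8 CPM in Venus-positive cells, a log2 ratio of −0.05 with an interval of −0.19 to 0.08. The sign of that value turned when libraries were scaled by total counts (0.02). Rad50 (66.5 CPM negative, 113 CPM positive) and Nbn (56.2 CPM negative, 95.7 CPM positive) had nearly equal log2 ratios of −0.76 and −0.77, with intervals of −0.90 to −0.63 and −0.92 to −0.62. The MRN genes summed to 207 CPM in Venus-negative cells and 296 CPM in Venus-positive cells.

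End joining genes were above equal expression in Venus-negative cells with the exception of the ligase. Xrcc5 (chromosome 1, 72307421 to 72394952), which encodes the larger subunit of Ku, the ring that binds broken ends, had 2278 counts in Venus-negative cells, against 684 in Venus-positive cells. It was 3.03-fold higher (219 CPM against 72.3 CPM, log2 ratio 1.60, interval 1.47 to 1.72). Xrcc6, the other Ku subunit, was at 167 CPM in Venus-negative cells and 106 CPM in Venus-positive cells and was not past the rule. Ku subunits work as a pair, and in CPM per kb Xrcc5 stood to Xrcc6 as 1.70 in Venus-negative cells and 0.888 in Venus-positive cells.

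Prkdc, which encodes the kinase that Ku recruits, was at 23.3 CPM in Venus-negative cells and 12.5 CPM in Venus-positive cells. Xrcc4, the scaffold of the ligase, had 332 counts in Venus-negative cells, against 132 in Venus-positive cells, and its interval began just outside the rule (log2 ratio 1.19, interval 0.90 to 1.49). Lig4, the ligase that XRCC4 holds (chromosome 8, 9969049 to 9977686), had 0 counts in Venus-negative cells, against 143 in Venus-positive cells, where it was at 15.1 CPM (interval 12.7 to 17.8). With 0 set to 3 counts in Venus-negative cells it was at least 52.5-fold lower there, while the exact interval of the ratio reached closer to equal expression, up to a log2 ratio of −5.40. XRCC4 and DNA ligase 4 act as a pair, and here too the ratios of the partners' genes had opposite signs.

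Of the 6 signalling genes 0 were past the rule, beside 30.1% of all genes at the minimum. The share was smaller at the level of most of them. Atm and Atr have mean levels of 20 to 50 CPM, where 31.7% of all genes were past it. Chek1, Chek2 and Mdc1 lie at 50 to 100 CPM (18.8%), and H2afx lies at 200 to 500 CPM (5.21%). H2afx, the histone variant that is phosphorylated around breaks, was at 251 CPM in Venus-negative cells and 258 CPM in Venus-positive cells (log2 ratio −0.04, interval −0.12 to 0.04). It had the highest level per kb of the 39 listed genes in both libraries, and its sign also turned with scaling by total counts (0.04). Histone genes resemble each other, so its counts are uncertain. Atr, the kinase of stalled replication, was at 47.6 CPM in Venus-negative cells and 25.1 CPM in Venus-positive cells (log2 ratio 0.93, interval 0.70 to 1.16). Atm, the kinase of double-strand breaks, was at 25.5 CPM in Venus-negative cells and 38.1 CPM in Venus-positive cells (log2 ratio −0.58, interval −0.81 to −0.34). The checkpoint kinase genes Chek1 (78.2 CPM negative, 92.8 CPM positive) and Chek2 (71.4 CPM negative, 89.9 CPM positive) and the adaptor gene Mdc1 (92.1 CPM negative, 78.3 CPM positive) lay close to equal expression.

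Many repair genes start beside another gene on the opposite strand, so the neighbours offered a comparison of genes that share a start region. In the GENCODE vM21 annotation of mm10, 16 of the 39 genes had a neighbour in the tables that starts within 1000 bases on the other strand, and 14 of these pairs had a ratio for both genes. The signs were the same in 6 pairs and opposite in 8. The opposite pairs include Mre11a and Ankrd49, whose intervals both included equal expression. In these 14 pairs 5 repair genes and 3 neighbours were past the rule, and no pair had both past it in the same direction. No share of such pairs over all genes was computed, so these counts say nothing particular about repair genes. Nbr1, which starts 194 bases from Brca1 and encodes an autophagy receptor, was at 261 CPM in Venus-negative cells and 147 CPM in Venus-positive cells (log2 ratio 0.83), in the direction of Brca1 without passing the rule. Emc3, which starts 30 bases from Fancd2, was at 217 CPM in Venus-negative cells and 144 CPM in Venus-positive cells (log2 ratio 0.60). Abhd13 starts 21 bases from Lig4 and had 361 counts in Venus-negative cells, against 146 in Venus-positive cells (log2 ratio 1.17), the opposite sign to Lig4. Npat, a histone gene regulator that starts 307 bases from Atm, was past the rule and higher in Venus-negative cells (log2 ratio 1.17, interval 1.03 to 1.31), where Atm was below equal expression. Exon bases on the opposite strand were shared with a gene in the tables by Fanca, Fancl, Fancd2, Fanci, Rad54l, Mre11a, Xrcc6, Xrcc4 and Atr. Gas2, which starts 252 bases from Fancf, had 244 counts in Venus-negative cells, against 0 in Venus-positive cells, while Fancf was near 0 in both.

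**Figure D4:**
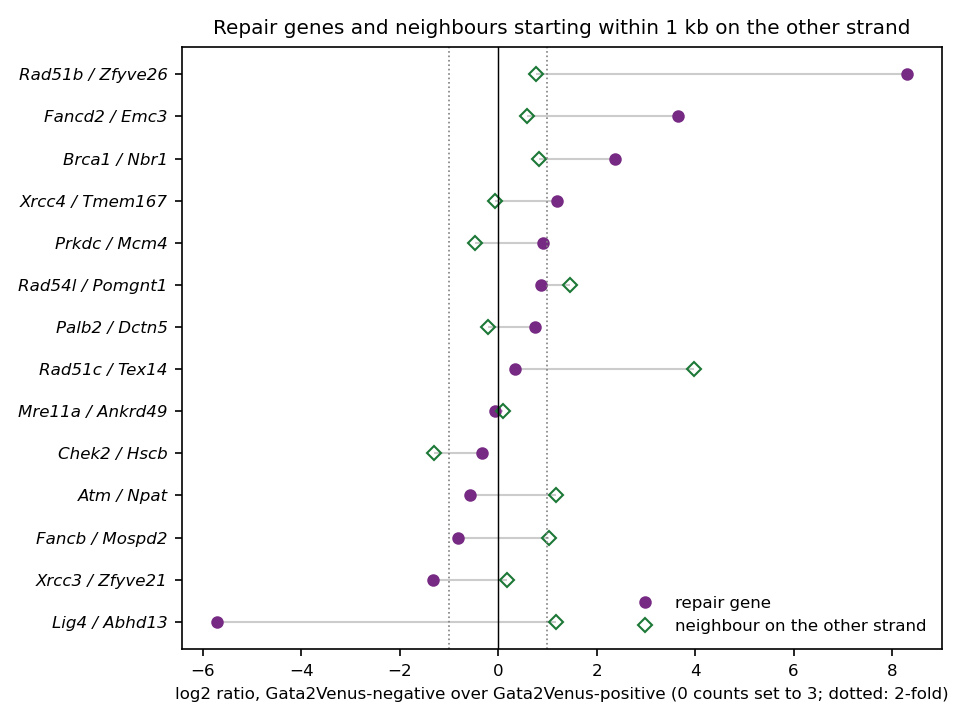
log2 ratio of Venus-negative over Venus-positive cells for 14 repair genes (filled circles) and the gene that starts within 1000 bases of each on the opposite strand (open diamonds), with 0 counts set to 3 and dotted lines at 2-fold. Rad51b, Fancd2 and Brca1 have neighbours on the same side of 0 but nearer to it, and Lig4 and Abhd13 lie on opposite sides.

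Further genes of the same pathways were described from 4 lists of 77 genes, of which 75 reached the minimum. Of these 12 were higher in Venus-negative cells (16%, beside 15.2% of all genes), 5 were lower (6.67%, beside 14.9%) and 58 did neither, and the median log2 ratio was 0.23. In crosslink repair, 21 of 22 genes reached the minimum, and 5 of them were higher (23.8%) and 1 was lower (4.76%). Dclre1a, a nuclease that digests past crosslinks, had 350 counts in Venus-negative cells, against 35 in Venus-positive cells (9.08-fold higher). Its relative Dclre1b had 655 against 180 (3.31-fold higher), and Eme2, a partner of the nuclease MUS81, had 111 against 22 (4.58-fold higher). Slx1b, the nuclease that works on the SLX4 scaffold, had 19 counts in Venus-negative cells, against 258 in Venus-positive cells (14.9-fold lower).

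In recombination, 3 of 22 further genes were higher in Venus-negative cells (13.6%, beside 15.2% of all genes) and 2 were lower (9.09%, beside 14.9%). Helq, a helicase of crosslink repair and recombination, had 752 counts in Venus-negative cells, against 2 in Venus-positive cells (log2 ratio 8.42, interval 6.56 to 11.46). Swsap1 and Zswim7 encode partners in a complex of recombination, and went opposite ways, with 244 against 44 counts for Swsap1 and 73 against 254 for Zswim7 (negative against positive). Polq, the polymerase of microhomology joining, had 0 counts in Venus-negative cells, against 138 in Venus-positive cells (at least 50.6-fold lower with 0 set to 3 counts, with an exact interval that reached up to a log2 ratio of −5.34).

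Of 13 further end joining genes 12 reached the minimum. Of these 2 were higher in Venus-negative cells (16.7%, beside 15.2% of all genes) and 2 were lower (16.7%, beside 14.9%). Dclre1c, which encodes the nuclease Artemis, had 1 count in Venus-negative cells, against 169 in Venus-positive cells (log2 ratio −7.54, interval −12.85 to −5.04). Nhej1, which encodes the XRCC4-like factor, had 5 counts in Venus-negative cells, against 95 in Venus-positive cells (20.9-fold lower). Aplf, a scaffold that binds Ku, was 3.96-fold higher in Venus-negative cells (59.8 CPM against 15.1 CPM), and Rif1, which shields ends from resection, was 3.30-fold higher (123 CPM against 37.1 CPM). Of 20 break signalling genes, Rnf168, a ubiquitin ligase for chromatin at breaks, was 4.38-fold higher in Venus-negative cells (87.6 CPM against 19.98 CPM). Uimc1, which reads that mark and brings BRCA1, was 3.03-fold higher (130 CPM against 42.8 CPM). These 2 genes make 10% of the 20, beside 15.2% of all genes, and 0 of the 20 were lower, beside 14.9%.

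Genes of DNA replication and division, which repair genes often accompany in the cell cycle, were more even. Of 28 replication genes 0 were past the rule, beside 30.1% of all genes at the minimum. Their median log2 ratio was 0.08, with a median level of 148 CPM in Venus-negative cells and 130 CPM in Venus-positive cells. The most abundant were Mcm6 (599 CPM negative, 697 CPM positive) and Rrm1 (545 CPM negative, 653 CPM positive). Of 24 mitotic genes Bub1 alone was past the rule (4.17%) and higher in Venus-negative cells (317 CPM against 120 CPM). In this list 0 genes were lower, and the median log2 ratio was 0.29. Top2a was at 1317 CPM in Venus-negative cells and 901 CPM in Venus-positive cells, and Cdk1 was at 440 CPM in Venus-negative cells and 661 CPM in Venus-positive cells. These lists hold more abundant genes than the repair list, whose median level was 43.8 CPM in Venus-negative cells and 40.8 CPM in Venus-positive cells, and abundant genes passed the rule less often in general.

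The share of genes past the rule was not above that of all genes for p53, the transcription factor that damage signalling activates, and its targets. Of 16 genes, 2 were lower in Venus-negative cells, 1 was higher, 11 were not past the rule and 2 were under the minimum. The 3 past the rule make 21.4% of the 14 at the minimum, beside 30.1% of all genes, with 7.14% higher (beside 15.2%) and 14.3% lower (beside 14.9%). Cdkn1a, the cell cycle inhibitor p21, had 74 counts in Venus-negative cells, against 468 in Venus-positive cells, and was 6.96-fold lower (log2 ratio −2.80, interval −3.17 to −2.44). Phlda3 was 2.80-fold lower (72 counts in Venus-negative cells, against 183 in Venus-positive cells). Gadd45a was 4.23-fold higher (247 counts in Venus-negative cells, against 53 in Venus-positive cells).

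**Figure D5:**
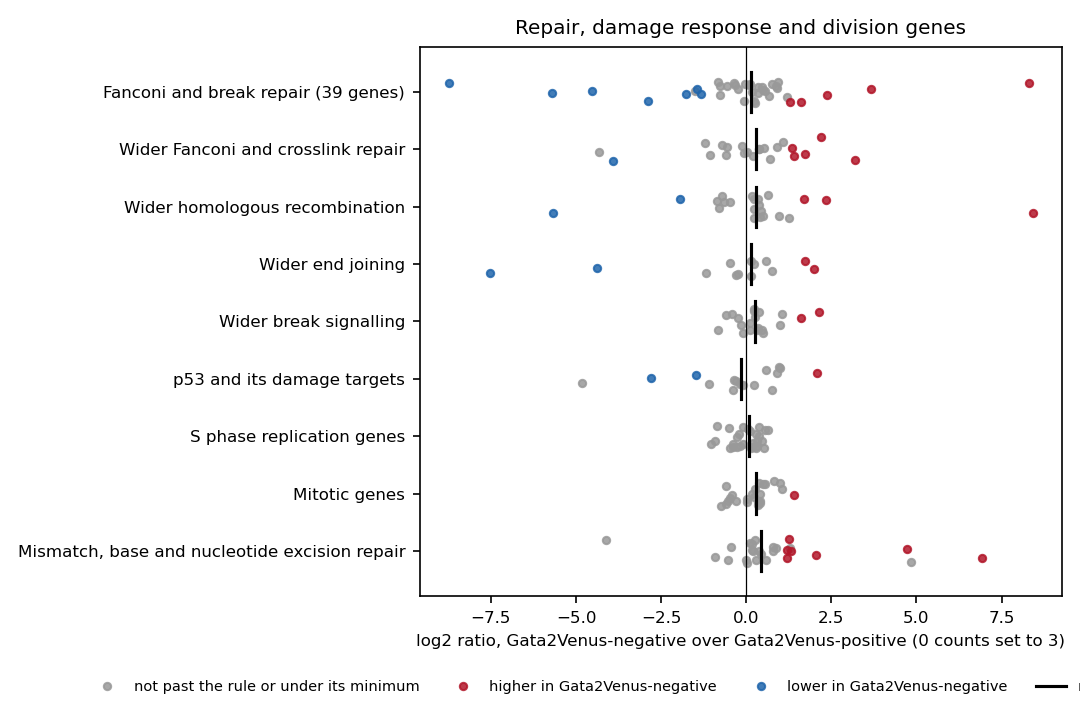
log2 ratio of Venus-negative over Venus-positive cells for genes with at least 20 counts in the repair list, 4 lists of further repair genes and 4 lists of related processes; red points are past the rule and higher, blue points past it and lower, grey points neither, and black bars are medians, with 0 counts set to 3. The repair list and the further crosslink repair and recombination lists hold points far out on both sides. The further end joining list does so mainly on the lower side, and the break signalling list holds no blue points. The replication list holds none past the rule, and the mismatch and excision repair list has red points and no blue ones.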

How the data were processed

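RNA from 1 Gata2Venus-negative and 1 Gata2Venus-positive sample was extracted with the mirVana kit and amplified by SMARTER, per the labels' protocols. TopHat, Cufflinks, HTSeq and build mm10 are named per the submitters' processing notes; which versions, annotation and strand setting were used is not given in the sources used here. Overlapping genes on opposite strands may therefore share reads, and 9 of the 39 genes share 104 to 665 exon bases with one. The authors deposited whole-number counts per gene symbol. Rows that name no gene were left out. They held 45.5% (negative) and 48.2% (positive) of each column as non-unique alignments, 5.93% and 7.996% as reads in no feature, and 0.474% and 0.412% as ambiguous reads.

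Groups came from the labels. Counts were scaled by TMM (factors 1.03 negative and 0.974 positive; edgeR 4.0.16, R 4.3.3). With 1 library per group there was no test between conditions: ratios have exact Clopper-Pearson intervals on the gene's total and levels exact Poisson intervals (scipy 1.17.1), at 95%. The labels name PCR-based SMARTER and no molecular identifiers: reads are not independent molecules, and intervals cover counting error only. Where a gene has 0 counts the limit is 3, or 0.288 CPM for Venus-negative and 0.317 CPM for Venus-positive cells. Ratios of genes at 0 were set with 3 counts. Levels between genes are compared per kb of merged exons (GENCODE vM21 basic). The genes, lists and rule were chosen with earlier results of these data known. All listed genes are named, and of other lists up to 4 genes past the rule with the interval farthest from equal expression, or the 2 most abundant where fewer than 2 passed; neighbours and early blood genes were named after their values were seen. A few such genes are left out of the text but stay in counts, sums and medians. Alternatives were other scalings (total counts, DESeq2 1.42.0 size factors, totals without the 100 most abundant genes), minimums, sizes and thinning, and an assumed spread between libraries. Scaling by total counts shifted the median of all genes by 0.08.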

Additional observations from a re-analysis of the deposited data

How the results depend on the processing

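No paired analysis was possible because each group holds 1 library. The 5 repair genes higher and the 7 lower in Venus-negative cells became 2 and 2 with a minimum of 50 CPM, 3 and 4 with an interval beyond 4-fold, and 2 and 4 when libraries were assumed to vary with a coefficient of 0.4. That assumption kept Fancd2, Rad51b, Fanca, Bard1, Xrcc2 and Lig4 past the rule and took out Brca1, Xrcc5, Fanci, Fancg, Fancm and Xrcc3. The further repair genes, 12 higher and 5 lower, became 7 and 0 with 50 CPM, 2 higher with 4-fold, 2 higher with the assumed spread, 8 lower with a 2-fold ratio and no interval, and 3 lower without genes at 3 or fewer counts in either library. Fewer genes can pass under a higher minimum or a wider interval by construction. Xrcc3 was no longer past the rule with scaling by total counts or with the deeper library thinned. No listed gene past the rule changed sign under the scalings, thinning or 0.5 added counts. The median log2 ratio of the listed genes lay between 0.14 and 0.23 under its alternatives. Fancf and Rad52 were under the minimum, 1 count in one library leaves the ratios of Rad51b and Xrcc2 wide, and spread between libraries cannot be estimated from 1 library per group.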

Other observations

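Genes of mismatch, base excision and nucleotide excision repair, which mend single bases and bulky lesions rather than breaks, passed the rule about as often as all genes did (29.2% against 30.1% in either direction). Of the 24 that reached the minimum, 7 were past the rule and higher (beside 15.2% of all genes), 0 were lower (beside 14.9%) and 17 were not past it, and the median log2 ratio over 27 genes was 0.44. Of the 3 under the minimum, Neil1, a glycosylase of base excision repair, had 0 counts in Venus-negative cells, against 47 in Venus-positive cells. Ddb2, which finds ultraviolet damage, had 135 counts in Venus-negative cells, against 1 in Venus-positive cells (log2 ratio 6.94, interval 4.44 to 12.25). Ercc5, the nuclease XPG, had 464 counts in Venus-negative cells, against 16 in Venus-positive cells (26.3-fold higher). Ercc2, a helicase of the transcription factor TFIIH, was 4.11-fold higher in Venus-negative cells (126 CPM against 30.6 CPM). The germ cell markers, at 426 CPM summed in Venus-negative cells, against 42.9 CPM in Venus-positive cells, were higher in the same library, and their part in these values was not tested.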
